A study of Homo sapiens with 30 samples.

Results

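The wide H3K27me3 domains of RWPE1-ERG S96E cells are the regions of at least 10000 bp in the list of H3K27me3 regions of these cells, selected on length alone on chromosomes 1 to 22 and X. There were 1187 such domains among 252649 regions of the list. RWPE1 is an immortalized line of normal human prostate epithelial cells. ERG is an ETS transcription factor that a gene fusion often switches on in prostate tumors, and S96E replaces its serine 96 with glutamate to mimic phosphorylation of that serine by ERK. The S96E cells were set beside RWPE1 cells with an empty vector (vector) and RWPE1 cells with wild-type ERG (ERG). All lines were made by retroviral transduction and drug selection, and the labels give no age of the cultures. Each line had 1 H3K27me3 library, made from DNA of 3 pooled ChIP experiments, so none of the differences between lines has a replicate check and no test was run. RNA-seq was read for vector, ERG, mAKT (RWPE1+mAKT, a constitutively active myristoylated AKT) and ERG/mAKT cells (RWPE1-ERG+mAKT), as 1 FPKM value per gene and line pooled over 3 libraries. RNA-seq of S96E cells was not used here, so expression below is that of the other lines.

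H3K27me3 is the trimethyl mark that EZH2, the enzyme of polycomb repressive complex 2 (PRC2), places on histone H3 at lysine 27. In differentiated cells the mark commonly forms broad blankets over silent developmental regulators, such as homeobox genes, and CpG-rich gene starts are preferred sites of PRC2 recruitment in mammals. Weaker and more diffuse H3K27me3 also lies over silent stretches between genes.

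As examples of gene starts inside the domains, the 200 bases before the annotated start of 3 genes are printed from the GRCh37 reference. They run 5′ to 3′ on the strand of the gene, with each CG dinucleotide in capitals. No annotated start lay in 513 of the 1187 domains, so these windows do not stand for all of them. The first 2 come from the widest domains over genes of the homeobox lists with such a window free of annotated transcripts, and the last from the widest domain with such a window over none of the listed families.
PAX2 (chr10:102494953-102495152, plus strand): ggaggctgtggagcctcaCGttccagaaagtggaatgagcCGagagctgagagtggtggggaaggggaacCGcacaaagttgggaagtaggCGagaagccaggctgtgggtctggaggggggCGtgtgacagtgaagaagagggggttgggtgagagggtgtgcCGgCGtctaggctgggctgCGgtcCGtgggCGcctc
PAX5 (chr9:37034266-37034465, minus strand): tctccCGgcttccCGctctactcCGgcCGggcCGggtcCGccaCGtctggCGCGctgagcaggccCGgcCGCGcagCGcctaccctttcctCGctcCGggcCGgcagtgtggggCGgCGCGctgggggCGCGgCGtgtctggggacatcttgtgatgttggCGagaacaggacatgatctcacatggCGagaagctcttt
LINC01574 (chr5:176170006-176170205, plus strand): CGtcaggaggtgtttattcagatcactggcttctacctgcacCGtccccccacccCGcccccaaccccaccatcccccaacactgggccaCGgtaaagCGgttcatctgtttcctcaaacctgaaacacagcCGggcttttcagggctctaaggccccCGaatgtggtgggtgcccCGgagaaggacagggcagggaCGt
The windows held 10, 24 and 9 CG dinucleotides in this order. PAX2 is a paired box factor of kidney and eye, PAX5 one of B cells, and LINC01574 a long noncoding RNA.

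The domains had a median width of 13358 bp, the middle 80% ran from 10452 to 23397 bp and the widest spanned 100330 bp. They covered 18.7 Mb, which is 0.617% of the chromosomes and 8.37% of all bases in the S96E list. Fold enrichment over input had a median of 3.72 and ran from 2.02 to 11.9, against a median of 2.75 in the 4152 S96E regions from 5000 bp to under 10000 bp and of 2.00 in shorter ones. A q-value of at most 0.01 was listed for 782 of the domains, or 65.9%. Just inside the limit lay 5 domains of 10000, 10007, 10009, 10009 and 10012 bp, and just outside it 5 regions of 9985, 9987, 9989, 9992 and 9997 bp. The region of 9987 bp at chr3:147070136-147080122, with a fold enrichment of 6.68, ended just before the wide domain over ZIC1 and ZIC4. The lines with RNA-seq expressed epithelial keratins, with KRT5 at 1170 to 3642 FPKM and KRT8 at 622 to 1769 FPKM. The endothelial gene CDH5 reached 0.210 FPKM the leukocyte genes PTPRC and CD14 reached 0.00391 and 1.09 FPKM, and the luminal gene KLK3 was listed at 0.

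The rule found 1187 domains in the S96E list, 121 regions of the same minimum width in the ERG list and 16 in the vector list. The header of the S96E list records 26454542 ChIP reads and 19065760 input reads, against 16513053 and 9675359 for ERG and 19444504 and 15679418 for vector. A q-value of at most 0.01 was listed for 3408 regions in S96E, 38 in ERG and 24 in vector, although the vector list was the longest, at 492065 regions. When regions at most 1 kb apart were joined within each list, 4605 reached 10 kb in S96E, 1090 in ERG and 936 in vector. As a ratio the excess in S96E over the other lists was smaller when gaps were bridged, as a count it was larger, and the order of the 3 lists stayed. The S96E library had the most ChIP and input reads, while ERG had fewer reads than vector and more wide regions. The median fold of all regions was 1.84 in vector, 1.94 in ERG and 2.01 in S96E, in the order of the wide regions. The part of depth and of enrichment in the count was not tested. Of the 121 wide ERG regions 118 overlapped a wide S96E domain, and 13 of the 16 wide vector regions did.

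The 10 widest domains included 6 over genes of the developmental lists. The widest of all, at chr20:59599250-59699579, spanned 100.3 kb with a fold enrichment of 3.93 around LOC100506470, an uncharacterized locus. Next came a domain of 74.0 kb over LINC01574 on chromosome 5 and one of 67.1 kb over LOC101928048 and MIR4533 on chromosome 20, with folds of 3.06 and 3.93. ZIC1 and ZIC4, adjacent zinc finger genes of cerebellar development, lay under 63.5 kb at chr3:147080572-147144108 with a fold of 7.12. PAX2 lay under 2 separate domains of 62.4 kb (fold 7.36) and 58.2 kb (fold 4.05) on chromosome 10. FOXF1, a forkhead factor of lung and gut mesenchyme, and its divergent noncoding RNA FENDRR shared 61.3 kb on chromosome 16 with a fold of 6.78. PCK1, which encodes the gluconeogenic enzyme phosphoenolpyruvate carboxykinase, lay under 60.4 kb with a fold of 3.20, PAX5 under 59.3 kb with a fold of 5.84, and EN1, an engrailed homeobox factor of the midbrain and limb, under 53.1 kb with a fold of 7.39. Domains over family genes and domains over none thus both reached this width, at folds of 4.05 to 7.39 and of 3.06 to 3.93.

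**Figure D1:**
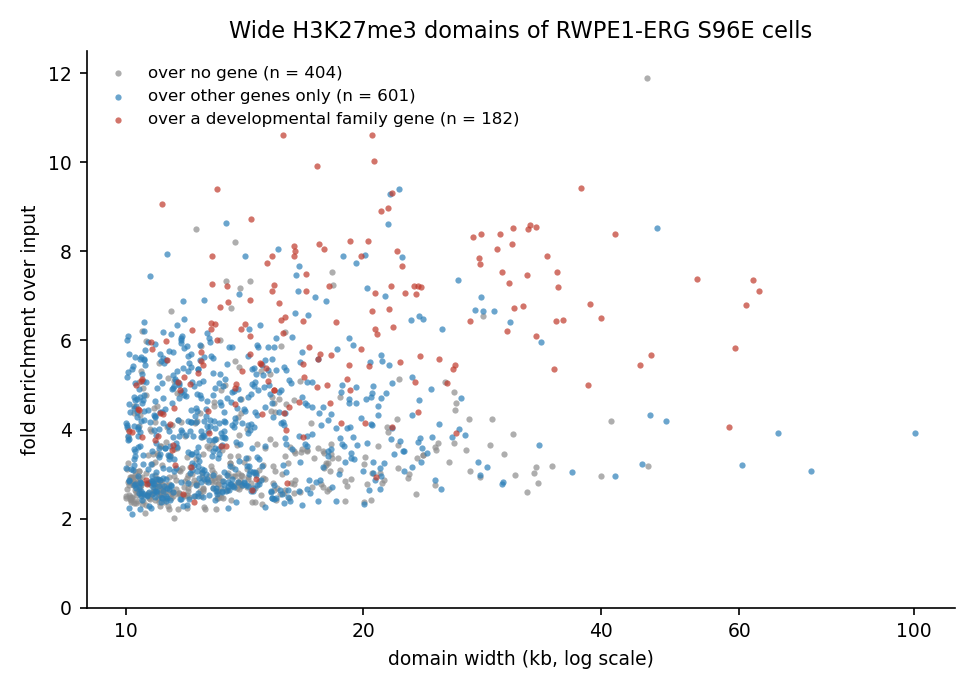
Width (x axis, kb, log scale) against fold enrichment over input (y axis) of each of the 1187 wide domains, 1 point per domain, colored by the genes overlapped. Domains over developmental family genes (red) had a median fold of 6.00 and domains over no gene (gray) one of 2.94, with wide domains of both kinds.

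The domain of highest fold, 11.9, overlapped no gene of the RNA-seq table. It spanned 45.8 kb at chr9:115820988-115866780, had the highest pileup of all domains at 57.5 reads, and was covered over 82.9% in the vector list and 86.0% in the ERG list. The other 4 of highest fold lay over regulators of neural development. LHX1, a LIM homeobox factor, had a fold of 10.6 on chromosome 17, and 3 domains on chromosome 9 over PRDM12, BARHL1 and FOXB2 had folds of 10.6, 10.0 and 9.92. PRDM12 is a zinc finger factor of pain-sensing neurons, BARHL1 a homeobox factor of the inner ear and cerebellum, and FOXB2 a forkhead factor.

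Domains that overlapped a developmental gene differed in strength from the others. There were 182 of them, with a median fold of 6.00 (10th to 90th percentile 3.93 to 8.32) and a median width of 16932 bp. The 601 domains over other genes alone had a median fold of 3.99 (2.62 to 5.89) and a median width of 13126 bp, and the 404 over no gene 2.94 (2.48 to 4.65) and 12852 bp. A q-value of at most 0.01 was listed for 173 of the 182, 436 of the 601 and 173 of the 404. Fold and width come from the same list as the rule, so these are descriptions.

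Base composition, which the rule did not use, followed the same order. The domains had a median of 18.8 CpG per kb and 48.7% GC, against 11.9 CpG per kb and 45.6% GC in the windows of the same length on either side, and 9.94 CpG per kb and 41.0% GC over all chromosomes. The windows on either side were themselves covered over a median of 50.4% by S96E regions. Domains over developmental genes held a median of 31.0 CpG per kb, domains over other genes 19.5 and domains over no gene 13.6. Across the 1187 domains, CpG per kb and fold had Pearson's r = 0.634 and Spearman's rho = 0.727, while CpG per kb and width had r = 0.108. These points share 1 library, and base composition can itself change read recovery. In the 200 bases before annotated starts, 65.6% of the 529 protein-coding starts inside the domains held at least 10 CG dinucleotides, as did 56.4% of all 20087 protein-coding starts and 41.3% of the 2397 in other S96E regions. Of long noncoding RNA starts, 45.3% of 382 inside the domains did, against 22.5% of all 18545. By this count the PAX2 and PAX5 windows printed above passed the limit of 10 and that of LINC01574 did not.

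Chromosome 20 held 155 of the domains, or 2.46 per Mb, against 0.391 per Mb over all chromosomes. Chromosome 17, with 57 domains, came next at 0.702 per Mb, followed by chromosome 9 at 0.602. Chromosome 22 held 1 domain and chromosome X 6. On chromosome 20 the domains had a median fold of 3.19, 79 of the 155 overlapped no gene and 8 overlapped a developmental gene. The same chromosome was also the most covered in each list, at 18.05% of its length in S96E, 10.1% in ERG and 14.1% in vector, and held 20 of the 121 wide ERG regions. Its regions also had the highest median pileup in each list, 5.91, 3.55 and 3.96 reads, and the copy number of the chromosome was not measured here, so its part in the count was not tested.

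Domains often lay side by side. With gaps of at most 50 kb bridged, 501 domains fell into 184 runs of at least 2, and 686 stood alone. The longest run held 36 domains on chromosome 20 at chr20:58655301-59827131, where they covered 76.8% of 1171831 bp at a median fold of 3.26 and a median of 10.7 CpG per kb. The genes overlapped in it were 4 uncharacterized loci or host transcripts and 3 microRNA genes. Runs of 11 domains each lay on chromosome 20 over ZNF831 and EDN3, which encodes endothelin 3, and on chromosome 17 over RBFOX3, which encodes the neuronal splicing factor NeuN. A run of 8 lay on chromosome 9 over LOC401557 and OLFM1, a secreted neuronal protein. A run of 4 domains at chr10:102426950-102623430 was centered on PAX2 and covered 80.2% of its span.

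Most of the sequence under the wide domains also lay in regions of the other lists, weak ones included, in pieces. The vector list covered a median of 54.2% of a domain (middle 80% of domains 33.6 to 73.6%), and the ERG list 68.5% (44.9 to 86.7%). In the windows of the same length beside the domains the medians were 29.1% in vector and 24.7% in ERG, and over all chromosomes the lists covered 7.96% and 4.56%. The windows beside the domains were themselves covered over a median of 50.4% by S96E regions. They can also hold another wide domain, so they are no unmarked background. S96E regions from 5000 bp to under 10000 bp were covered over a median of 43.0% in vector and 53.9% in ERG. None of the domains was at 0 in either list. At least 50% was covered in both lists in 670 domains and in neither in 127. The coverage in vector came as a median of 7 regions per domain, the longest spanning 17.1% of the domain, and in ERG as 5 regions, the longest spanning 29.5%. The regions inside the domains had a lower fold there, with a median, weighted by length, of 2.07 in vector and 2.42 in ERG beside 3.72 for the domains in S96E. With only regions of at least 2-fold counted, the median coverage of a domain was 34.9% in vector and 63.1% in ERG. The domains were chosen by length in the S96E list, where longer regions had higher folds. A higher fold in S96E is thus in part built into the rule, and the S96E library also had the most reads.

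The ERG list covered more of the domain than the vector list in 979 of 1187 domains, or 82.5%, with a median difference of 12.7 percentage points. The ERG list held 228153 regions and the vector list 492065. When the 228153 regions of lowest p-value were taken from each list, the vector median was 46.7%. The 2 libraries also differed in ChIP reads, input reads and median fold. The part of these and of list length in the difference was not tested. The share was higher in ERG in 163 of 182 domains over developmental genes, 500 of 601 over other genes and 316 of 404 over no gene. Median coverage over the 3 classes was 60.7, 54.6 and 51.04% in vector and 79.3, 67.9 and 64.2% in ERG. Across domains the 2 shares had r = 0.535 and rho = 0.536, with fold in S96E at r = 0.414 to the vector share and 0.525 to the ERG share. All 3 lists depend on the same genome sequence and mappability, so these values are descriptions.

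**Figure D2:**
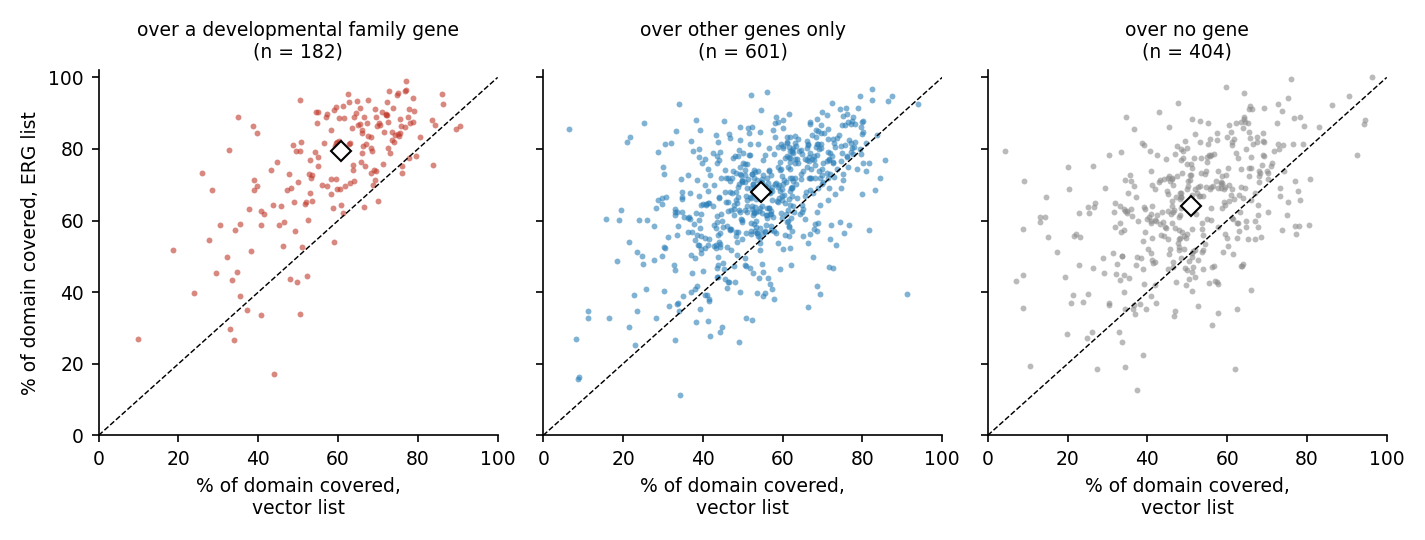
Share of each domain covered in the vector list (x axis, %) and in the ERG list (y axis, %), 1 point per wide S96E domain, in 3 panels by the genes overlapped. The dashed line marks equal shares and the diamond the medians of the panel, which lay above the line in each panel, at 60.7 and 79.3% over developmental genes and 51.04 and 64.2% over no gene.

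Single domains spanned nearly the whole range of coverage. The 5 of highest summed share included SLC32A1, the vesicular GABA transporter, under 21.5 kb on chromosome 20, which was covered over 93.9% in vector and 92.5% in ERG. IGF2BP1, an RNA-binding protein of fetal tissues, lay under 20.2 kb on chromosome 17 covered over 87.4% and 94.9%, and the other 3 overlapped no gene and reached 88.1 to 100% in ERG. At the other end was a domain of 13.8 kb on chromosome X over POU3F4, a POU homeobox factor of the inner ear that the POU list used here leaves out. Its coverage was 8.83% in vector and 15.6% in ERG at a fold of 4.49 in S96E. A domain over IQCA1L on chromosome 7 was covered over 9.05 and 16.4%, and one on the same chromosome over PLXNA4, a semaphorin receptor, over 8.14 and 26.9%. One without a gene on chromosome 15 was covered over 10.6 and 19.3%, and one over NKX6-3, a homeobox factor of the stomach, and ANK1 over 9.78 and 27.04%. These 4 had folds of 2.58 to 2.81, below the median of the domains.

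The domains at ZIC1 and ZIC4, at NKX2-5 and at HOXB13 showed the difference in continuity. The ZIC1 and ZIC4 domain corresponded to 26 vector regions that covered 75.1% of it and to 6 ERG regions that covered 95.5%. The domain over NKX2-5, a heart homeobox factor, spanned 46.4 kb on chromosome 5 with 19 vector regions over 70.5% and 9 ERG regions over 86.8%. That over HOXB13, a homeobox factor of the prostate, spanned 40.1 kb on chromosome 17 together with PRAC1 and PRAC2, with 21 vector regions over 64.6% and 7 ERG regions over 90.1%. The widest domain of all corresponded to 50 vector regions over 56.7% and 25 ERG regions over 80.3%. In each of these the number of pieces was lower in ERG than in vector and their summed cover higher.

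**Figure D3:**
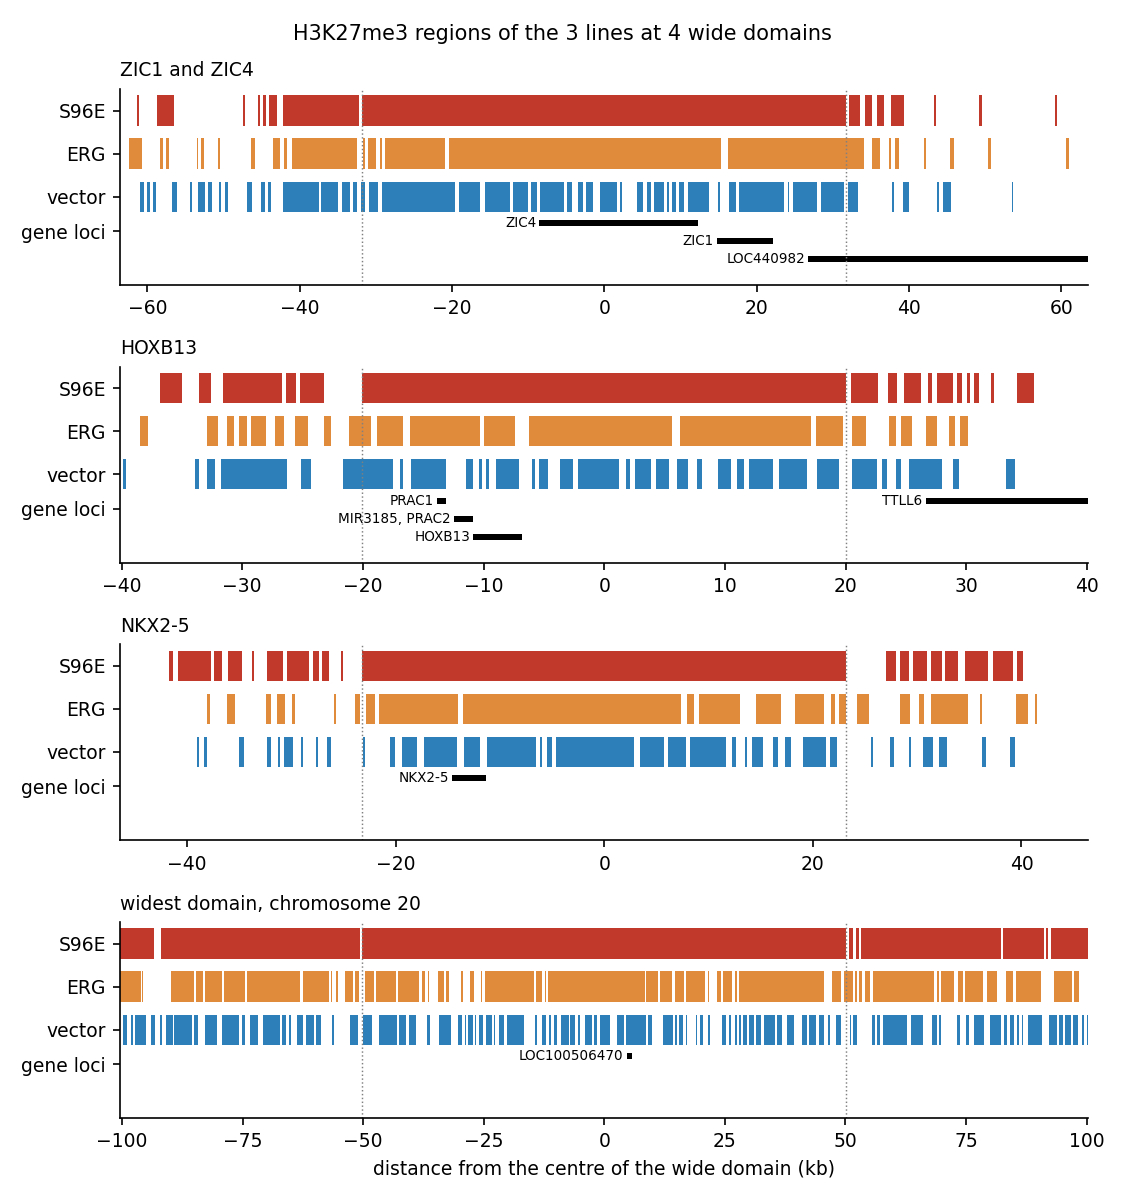
Regions of the H3K27me3 lists of S96E (red), ERG (orange) and vector cells (blue) at 4 wide domains, with gene loci of the RNA-seq table in black (each row labeled by the first 3 symbols at most). The x axis is the distance in kb from the center of the wide domain, whose ends are dotted. The S96E region is unbroken by the rule, and the ERG and vector regions fill 80.3 to 95.5% and 56.7 to 75.1% of it in pieces.

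Of 25833 genes with a locus on these chromosomes, 1062 were overlapped by a wide domain, a background of 4.11%. The overlap took in at least 50% of the locus for 348 genes (1.35%), and the annotated start lay in a domain for 598 of the 21995 genes that matched GENCODE by symbol (2.72%). A gene was overlapped by 783 of the domains, exactly 1 gene by 520, and up to 23 genes, those of the gamma protocadherin cluster, shared 1 domain. A locus in the table can be a bundle of several overlapping genes, as for 458 of the 1062, so a bundled gene may be counted as overlapped through its neighbor.

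Genes of the developmental lists were overlapped in 174 of 434 cases, or 40.1%, against the 4.11% of all genes. The lists were written with earlier results of these data known, and the shares are descriptions. Homeobox lists had 94 of 187 genes overlapped, other developmental factors 72 of 180, and secreted ligands 8 of 67. All 5 ZIC genes were overlapped, as were 11 of 14 NKX, 7 of 9 PAX and 8 of 12 LIM homeobox genes. The bHLH list, which holds factors of nerve and muscle such as NEUROG1, OLIG2 and MYOD1, had 23 of 50, T-box factors 7 of 16, SOX factors 6 of 19, FOX factors 13 of 46 and GATA factors 2 of 6. Among ligands, WNT1 and WNT11 were overlapped of 19 WNT genes, FGF3 and FGF9 of 22 FGF genes, BMP4, BMP7 and GDF6 of 23 in the BMP and GDF list, and IHH of 3 hedgehog genes. Of the families set beside them, 17 of 98 KCN potassium channel genes and 23 of 57 clustered protocadherins were overlapped, the latter all in the gamma cluster and under 2 domains. Numbered zinc finger genes had 2 of 526, olfactory receptors 1 of 364, and keratins and cytosolic ribosomal proteins 0 of 55 and 0 of 79.

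**Figure D4:**
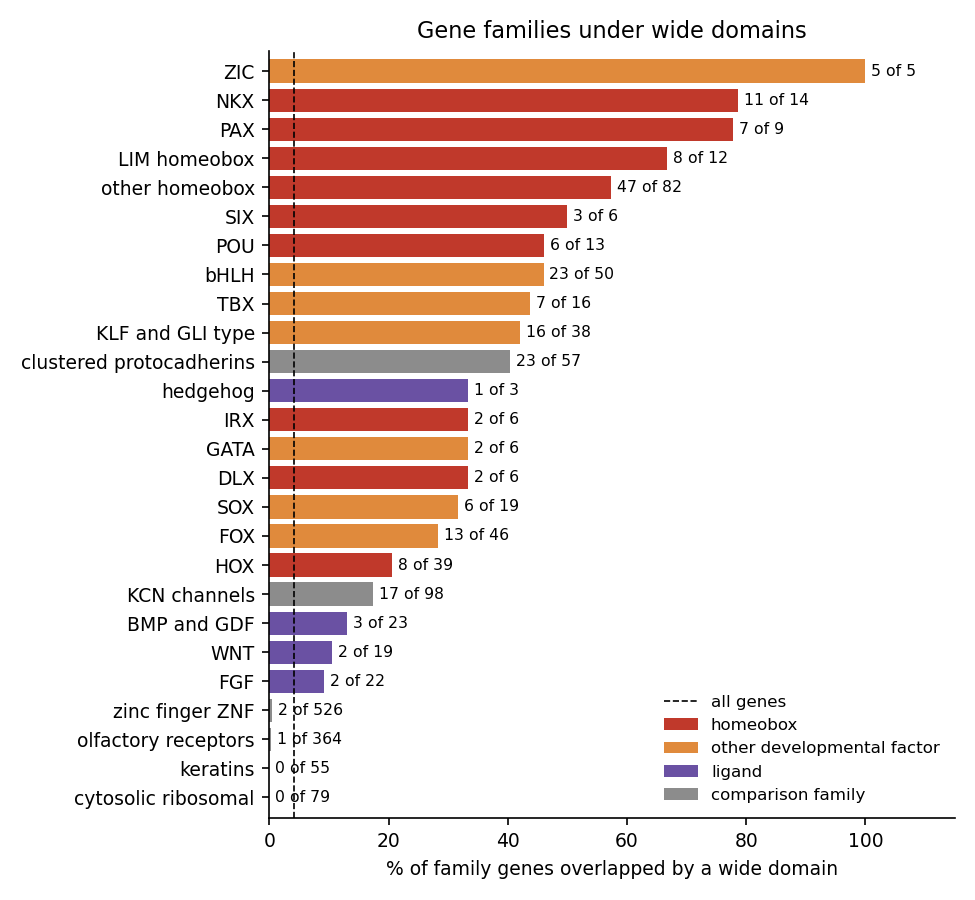
Share of the genes of each family whose locus was overlapped by a wide S96E domain (x axis, %), 1 bar per family with the counts printed beside it. The dashed line is the 4.11% of all genes, ZIC genes reached 100% and keratins and ribosomal proteins 0%.

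The widest domain over each family named a leading member. For the LIM homeobox list this was LMX1B, a factor of limb and kidney, under 38.6 kb at a fold of 4.99, and for the sine oculis factors it was SIX3, an eye and forebrain factor, under 35.8 kb at 6.47. POU3F3, a neural factor, lay under 31.1 kb at a fold of 6.72 and TBX5, a T-box factor of heart and forelimb, under 28.0 kb at 7.85. BHLHE23 lay under 44.9 kb at 5.46, PRDM13 under 27.3 kb at 6.43, GATA5, a heart and gut factor, under 23.5 kb at 4.39 and SOX1, a factor of neural progenitors, under 22.6 kb at 7.08. DLX5 and DLX6, factors of forebrain and jaw, shared 16.1 kb at 4.50, and IRX5 lay under 14.4 kb at 6.90. The domains over the ligands were 26.0 kb at BMP7 (fold 5.35), 14.4 kb at WNT1 (5.71), 14.02 kb at FGF3 (5.31) and 13.4 kb at IHH (7.21). Coverage of these 14 domains ran from 37.2% at FGF3 to 76.8% at TBX5 in vector, and from 35.0% at FGF3 to 96.3% at TBX5 in ERG.

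The HOX clusters, whose genes set position along the body axis, were split. Of 39 HOX genes 8 were overlapped by a wide domain, and these were HOXB8, HOXB9, HOXB13, HOXC11, HOXC12, HOXC13, HOXD3 and HOXD13. None of the 11 HOXA genes was, and 10 of them had no S96E region of any length on their locus. The highest FPKM of the HOXA genes in the 4 lines ran from 0.652 to 25.8, with 10 of 11 reaching 1 FPKM. Of the genes not overlapped, HOXA9 reached 25.8 FPKM, HOXD11 17.4 and HOXA10 13.1. HOXD13, which lay wholly in a domain, had 4.48 FPKM in vector, 2.57 in ERG, 3.79 in mAKT and 3.76 in ERG/mAKT cells, while HOXD11, HOXD10, HOXD9 and HOXD8 in the same cluster carried no S96E region and had 3.21 to 17.4 FPKM. HOXB13 had 0.479 FPKM in vector, 0.261 in ERG, 0.485 in mAKT and 0.190 in ERG/mAKT cells. HOXB7, without an S96E region on its locus in the table but with its GENCODE start in a wide domain, had 7.82 to 11.5 FPKM, and its neighbor HOXB8, wholly in a domain, had 0.0393 to 0.0753 FPKM. Thus 3 of the 8 overlapped HOX genes (HOXB9, HOXC13 and HOXD13) and 21 of the 31 others reached 1 FPKM in at least 1 line.

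Genes under the domains were mostly silent in the lines with RNA-seq. Of the 1062 overlapped genes, 952 (89.6%) stayed below 1 FPKM in all 4 lines, against 51.5% of all genes, and 791 (74.5%) stayed below 0.1 FPKM, against 38.7%. All 4 values were listed at 0 for 357 of the 1062, and for 5471 of all 25833 genes. Among the 357 were ZIC1, ZIC4, FOXF1, FENDRR, PCK1, TBX5, SOX1, POU3F3, WNT1 and FGF3. In these bulk samples fewer expressing cells and less RNA per cell cannot be told apart. The share below 1 FPKM was 81.4% for the 365 genes with less than 10% of their locus in domains, 92.3% for the 349 with 10 to 50%, 91.3% for the 103 with 50 to 90%, and 97.6% for the 245 with at least 90%. Short loci were more often silent in general, so loci below 20000 bp were taken alone, where 94.5% of 365 overlapped and 56.9% of 10151 other genes stayed below 1 FPKM. Genes met by S96E regions below 10000 bp of which at least 1 reached 5000 bp were below 1 FPKM in 85.7% of 1971 cases, those met by shorter regions alone in 73.4% of 8779, and those with no S96E region in 30.1% of 14021. The median FPKM of overlapped genes was 0.00350 in vector, 0.00312 in ERG, 0.00348 in mAKT and 0.00250 in ERG/mAKT cells.

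**Figure D5:**
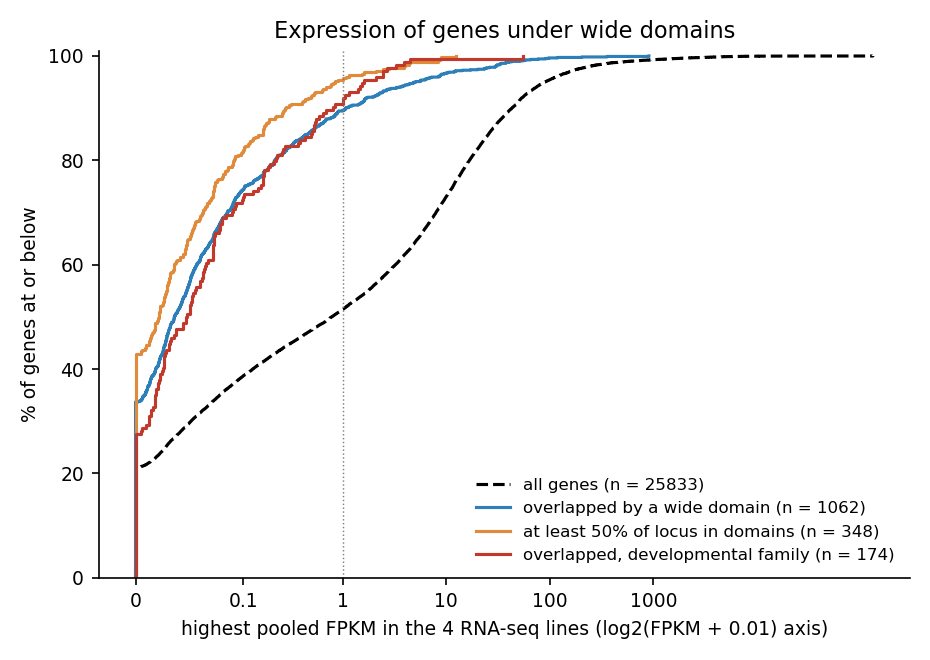
Cumulative share of genes (y axis, %) by the highest pooled FPKM in the 4 lines (x axis, log2(FPKM + 0.01) scale, labeled in FPKM), for all genes (dashed), genes overlapped by a wide domain, genes with at least 50% of their locus in domains and overlapped developmental genes. At 1 FPKM (dotted line) the curves stood at 51.5% for all genes and at 89.6, 95.7 and 92.0% for the other sets.

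Within the developmental lists, low expression was more common under the domains. Of the 174 overlapped developmental genes 160 (92.0%) stayed below 1 FPKM, as did 155 (59.6%) of the 260 that were not overlapped. All 7 overlapped PAX genes stayed below 1 FPKM, with PAX6 highest at 0.578. Outside the domains PAX9 reached 4.604 FPKM and PAX8 0.0252. Among sine oculis factors SIX3 reached 0.0473 FPKM, SIX6 was listed at 0 and SIX2 reached 2.45, all 3 under domains, and SIX4 and SIX5, outside the domains, reached 6.22 and 9.70. Among LIM homeobox genes the highest overlapped was LHX1 at 0.425 FPKM and the highest other was LHX6 at 17.3. IRX1 under a domain was listed at 0 and IRX5 reached 0.258 FPKM, and IRX2, IRX3 and IRX4 outside them 20.6, 8.86 and 26.5. GATA4 was listed at 0 and GATA5 reached 0.00657 FPKM, against 6.23 for GATA6, 5.10 for GATA3 and 3.68 for GATA2. The locus of GATA3 in the table was not overlapped, but its GENCODE start, upstream of that locus, lay in a wide domain. In the SOX family the highest overlapped member was SOX2 at 0.220 FPKM, and SOX15 and SOX9 outside the domains reached 129 and 27.1. In the list of other homeobox genes the order was the reverse, since PITX1, a factor of the hindlimb, reached 55.5 FPKM and the highest gene outside the domains, CUX1, 15.1. PITX1 was the highest overlapped developmental gene, and 3.19% of its locus, which it shares with other genes in the table, lay in a domain. In other families many genes outside the domains were also low. Below 1 FPKM there were 21 of 27 bHLH, 2 of 3 NKX, 17 of 20 FGF and 16 of 20 BMP and GDF genes. Under the domains these counts were 22 of 23, 11 of 11, 2 of 2 and 3 of 3. The genes of this paragraph were named after their values were seen.

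Of the 110 overlapped genes that reached 1 FPKM, 68 had less than 10% of their locus in domains and 15 at least 50%. The 10 of highest FPKM among those with at least 50% included AGAP2-AS1, NPTX2, C1orf53, FBXL15, HOXD13, PHACTR3, ROBO3 and SIX2. AGAP2-AS1, an antisense noncoding RNA, had 12.3 FPKM in vector, 12.3 in ERG, 9.74 in mAKT and 6.98 in ERG/mAKT cells, and it was the 1 gene of the 348 above 10 FPKM. Its locus in the table was shared with another gene, as were those of FBXL15 and PHACTR3, and the counting was not stated to use strand. C1orf53 had 6.05 to 8.64 FPKM, FBXL15, an F-box protein, 6.22 to 8.38, PHACTR3 2.71 to 4.35, ROBO3, a receptor of axon guidance, 3.12 to 3.98, and SIX2, a kidney progenitor factor, 1.84 to 2.45. NOC2L, a ribosome biogenesis factor, had 109 to 119 FPKM on a bundled locus of which 25.1% lay in a domain of 10012 bp shared with SAMD11, which had 0.0196 to 0.128 FPKM.

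Against the vector line, the median of the overlapped genes that reached 1 FPKM in either line was near that of all genes in ERG cells, while the share at least 2-fold lower was above that of all genes in each line. On the log2(FPKM + 1) scale the median ratio of ERG to vector was −0.05 over 108 overlapped genes and −0.01 over all 12237 genes. At least 2-fold higher in ERG were 5 of the 108 (4.63%; 3.62% of all genes) and at least 2-fold lower 6 (5.56%; 0.989% of all genes). For mAKT over vector, 0 of 96 were at least 2-fold higher (1.16% of all genes) and 3 lower (0.841%). For ERG/mAKT over vector, 3 of 99 were higher (2.94%) and 8 lower (1.09%), with a median of −0.20 against −0.06 for all genes. Over the developmental genes among them the median log2 ratio to vector was −0.56 for ERG (13 genes), −0.01 for mAKT (14 genes) and −0.44 for ERG/mAKT cells (13 genes). Of all genes 11872, 11930, 11912 and 11982 reached 1 FPKM in vector, ERG, mAKT and ERG/mAKT cells. Of the 260 developmental genes not overlapped, 98, 97, 97 and 96 did. Of the overlapped developmental genes, 13 reached 1 FPKM in vector, 6 in ERG, 13 in mAKT and 6 in ERG/mAKT cells. For ERG and ERG/mAKT the filter thus took in genes through vector, where they were high. Ratios below 0 are in part built into that filter, and these medians are descriptions. The 3 comparisons share the vector libraries, and these pooled values carry no error.

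Among the 14 genes with at least 50% of the locus in domains that reached 1 FPKM in vector or ERG, the median log2 ratio of ERG to vector was −0.43. With at least 50% of the locus covered, 13 genes reached 1 FPKM in vector and 9 in ERG, beside 11872 and 11930 of all genes. PRDM13, HOXB9 and PLEKHO1 passed this filter only through vector. A ratio below 0 is thus in part built into the choice of genes, and the values below are descriptions. NPTX2, a secreted neuronal pentraxin, had 8.89 FPKM in vector, 2.94 in ERG, 3.08 in mAKT and 1.56 in ERG/mAKT cells. It was highest in vector, at a log2 ratio of −1.33 for ERG, and 96.6% of its locus lay in a domain. PRDM13, a neural zinc finger factor, had 1.14 FPKM in vector, 0.453 in ERG, 1.00 in mAKT and 0.197 in ERG/mAKT cells. HOXB9 had 1.54 FPKM in vector, 0.812 in ERG, 1.30 in mAKT and 0.877 in ERG/mAKT cells. The lines with ERG were thus below both lines without it for PRDM13 and HOXB9, and for NPTX2, where ERG cells were close to mAKT cells and ERG/mAKT cells further below them. PLEKHO1 had 1.61 FPKM in vector and 0.637 to 0.768 in the other lines, and C2orf70 went the other way, with 1.06 FPKM in ERG and 0.225 in vector. HOXD13, FBXL15 and PHACTR3 were also among the 10 largest differences, at log2 ratios of −0.62, −0.38 and −0.17.

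A wide domain also lay over the start of ERG itself, the gene that was introduced into the cells, at chr21:40026692-40036733. This gene was singled out after its values were seen. The domain spanned 10.0 kb at a fold of 3.86 and was covered over 61.4% in vector and 59.8% in ERG, and it held the annotated start and 2.38% of the locus. ERG had 0.264 FPKM in vector, 358 in ERG, 0.435 in mAKT and 328 in ERG/mAKT cells. The FPKM cannot tell transcripts of the introduced ERG from those of the gene on chromosome 21.

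Genes of the polycomb machinery were outside the domains. EZH2, the methyltransferase, had 13.7 FPKM in vector, 10.4 in ERG, 12.1 in mAKT and 11.9 in ERG/mAKT cells. Its PRC2 partners SUZ12 and EED had 13.3 to 17.2 and 23.9 to 29.1 FPKM, and the H3K27 demethylases KDM6A and KDM6B 3.77 to 4.74 and 4.56 to 6.17 FPKM. No S96E region of any length overlapped the loci of these 5 genes.

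Peaks of the other assays were also present inside the domains, denser than over the rest of these chromosomes in 5 of 6 lists. ERK2 peaks of vector cells lay at 9.81 per Mb inside the domains and 13.6 per Mb elsewhere, and ERK2 peaks of ERG cells at 2.19 and 1.88 per Mb. For ERG cells this was 41 ERK2 peaks in 27 domains. They lay at 0.799 per Mb in domains over developmental genes, 1.65 in those over other genes and 3.91 in those over no gene. Only the last exceeded the 1.88 per Mb elsewhere. ERG peaks of ERG/mAKT cells lay at 3.95 and 2.99 per Mb, in 71 of the domains. Open chromatin by ATAC-seq was listed at 31.5 per Mb inside and 20.7 elsewhere in ERG cells, 24.7 and 18.9 in mAKT cells, and 14.7 and 13.7 in ERG/mAKT cells. In the windows beside the domains these ATAC densities were 27.4, 25.5 and 16.05 per Mb. There ERK2 peaks lay at 13.55 per Mb in vector and 1.71 in ERG cells, and ERG peaks at 3.73 per Mb. An ATAC peak of ERG cells was present in 446 domains (37.6%), including 56.6% of those over developmental genes and 24.8% of those over no gene. No ATAC or ERK2 data of S96E cells were used, so these lists and the domains come from different lines.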

How the data were processed

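H3K27me3 ChIP-seq lists were used for the vector line, the line with wild-type ERG and the line with ERG S96E, with 1 library per line from 3 pooled ChIP experiments. Reads were aligned to hg19 with Bowtie2, blacklisted regions and duplicates were removed, and regions were called against input by the authors with MACS2. The headers give version 2.2.7.1 and the broad setting, with p-value limits of 0.001 and 0.1 for strong and weak regions. The deposited lists hold, per region, a pileup signal in reads, a fold enrichment (a ratio to local input), and −log10 p-values and −log10 q-values, although the headers state that no q-value would be calculated. The maximum gap bridged within a region was set by the read length, 84 bp in vector and ERG and 74 bp in S96E. The deposited FPKM values were made by the authors with Cuffdiff from 3 libraries per line, as 1 value per gene and line. The same table holds the authors' own fold changes, test statistics, p-values and q-values, which were not used.

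The 1187 domains are regions of at least 10000 bp. The domains, gene lists and families were chosen with earlier results of these data known. A gene was overlapped where its locus in the table shared at least 1 bp with a domain. Of 26253 genes, 4 with conflicting records were left out and 25833 lay on chromosomes 1 to 22 and X. Log2 ratios used a pseudocount of 1 and took in genes that reached 1 FPKM in one line of the pair. Peaks of other lists were placed by their midpoint. No region passed the end of its chromosome on the GRCh37 reference, which was used with GENCODE release 44 mapped to GRCh37 for gene starts and base composition. The domains named were the 10 widest, the 5 of highest fold, the 5 nearest the length limit on each side, the widest over each developmental family, and the 5 of highest and of lowest summed share in the vector and ERG lists. The genes named were those they overlap, and the 10 of highest FPKM and the 10 of largest vector to ERG difference with at least 50% of the locus covered. Interval code was tested on simulated intervals. No test was run because each line has 1 list and 1 pooled FPKM value, so no value has an error between replicates. Some items that these rules name are not reported here. Lists of VCaP cells, and a list of open chromatin attached to a sample labelled VCaP, were not used here. Python 3.11.15, pandas 2.3.3, NumPy 2.4.6, SciPy 1.17.1 and matplotlib 3.10.9 were used.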

Additional observations from a re-analysis of the deposited data

How the results depend on the processing

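No paired analysis was possible because each line has 1 ChIP list and 1 pooled FPKM value per gene. Of 37 alternative values, 27 moved and 10 did not. A count was labeled as moved when it differed from the main count by more than a fixed ratio. Another value was labeled so when it fell outside an interval around the main value drawn over domains or genes. Domains and genes of 1 library are not replicates, so these labels are descriptions and no test. The number of domains was 5339 at a minimum of 5 kb, 207 at 20 kb, 4605 after joining across 1 kb and 782 with the q-value limited to 0.01. All 1187 reached 2-fold, and 1032 were left without chromosome 20. Leaving out chromosome 20, and the coverage of domains under the limit on q, were chosen after seeing the data. Median coverage in vector was 46.7% with equal numbers of regions, 34.9% for regions of at least 2-fold, 74.9% after joining, 46.2% and 61.8% at 5 and 20 kb, and 58.6% under the limit on q. Median coverage in ERG was 63.1% at 2-fold, 84.1% after joining, 57.6% and 77.4% at 5 and 20 kb, and 73.1% with the limit on q. It was above that in vector under each of these. Genes overlapped numbered 348 with at least 50% of the locus, 598 by gene start, 3033 at 5 kb and 230 at 20 kb. Below 1 FPKM were 95.7% with at least 50% of the locus, 87.1% at 5 kb and 94.3% at 20 kb, and 74.5% were below 0.1 FPKM. Developmental genes were overlapped in 26.7% with at least 50% of the locus, 33.6% by gene start, 56.2% at 5 kb and 17.1% at 20 kb. What lay behind these shifts was not tested. The median log2 ratio of ERG to vector was −0.05 with a pseudocount of 0.1 and 0 without the filter on FPKM. With 1 library per line, differences in depth, read length and enrichment between lines cannot be told apart from differences between the cells.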
